A study of Rattus norvegicus with 2 samples.

Results

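The Car3-positive Otor-high cells of the postnatal rat cochlea are described here. They were chosen by a rule on their own counts: more than 500 and fewer than 5000 genes, under 25% mitochondrial UMIs (a UMI, or unique molecular identifier, stands for 1 captured transcript), no UMI of Top2a or Ube2c, which mark dividing cells, Otor at 1% or more of the UMIs of the cell, and at least 3 Car3 UMIs. The rule kept 406 cells of 28569 barcodes, 22 of them at postnatal day 1 (P1) and 384 at postnatal day 7 (P7). Because Car3 and Otor chose the cells, their levels are given as a description only. All other cells that met the rule except that they held 0 to 2 Car3 UMIs, 2866 at P1 and 2043 at P7, are called other Otor-high cells and are the group of comparison.

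Both libraries came from pooled cochlear duct tissue of Sprague-Dawley rats with no treatment, 1 library at P1 and 1 at P7, made with the 10x 3' v3 chemistry. The labels give the cell type as greater epithelial ridge cell, and the Methods state that stria vascularis, spiral ligament and spiral ganglion were dissected away. With 1 library per age, age and library cannot be told apart, no test was run, and cells were not taken as replicates. Levels are UMIs summed over a group of cells and scaled to a total of 1000000 (CPM), log2 ratios between groups carry a pseudocount of 5 CPM, and intervals are exact at the 95% level and cover counting error only. A gene was called where the ratio passed 2-fold. The Car3-positive cells held 193193 UMIs in the P1 library (median per cell 7681) and 3964855 in the P7 library (median 9699.5), and the medians of the other Otor-high cells were 6500.5 and 7803. The 2 libraries shared 60 barcodes, among them 3 of the P7 cells and 0 of the P1 cells. Scrublet called 0 of 22 cells at P1 and 36 of 384 at P7 (9.38%) as doublets, against 4.29% and 7.05% of the other Otor-high cells.

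Fibrocytes are the connective tissue cells that line the lateral wall and the spiral limbus of the cochlea, where they take up potassium and pass it on through gap junctions, and they secrete otoraplin, otospiralin and cochlin into their matrix. Carbonic anhydrase III, encoded by Car3, is a low-activity member of its family, best known from slow skeletal muscle, fat and liver. Gcg encodes proglucagon, the precursor that convertases cut into glucagon in islet alpha cells and into glucagon-like peptides in intestinal L cells, Cnmd encodes chondromodulin, a cartilage glycoprotein that inhibits vessel growth, and Crym encodes a thyroid hormone-binding protein.

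RefSeq promoter sequence (GRCr8) was at hand for 3 of the 6 marker genes, Gcg, Otos and Otor, and is shown since these genes told the Car3-positive cells and their neighbours apart or defined both groups. Each line gives the 100 bases before the gene's start, 5′ to 3′ on the strand of the gene, with any TATAAA, the core of a TATA box, in capitals. The windows lie at chr3:67531534-67531633 (minus strand) for Gcg, chr9:100665899-100665998 (minus strand) for Otos and chr3:150868786-150868885 (plus strand) for Otor.
Gcg: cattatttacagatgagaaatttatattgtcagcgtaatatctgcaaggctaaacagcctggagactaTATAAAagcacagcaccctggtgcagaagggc
Otos: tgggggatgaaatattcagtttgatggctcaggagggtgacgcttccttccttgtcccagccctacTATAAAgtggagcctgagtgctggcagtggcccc
Otor: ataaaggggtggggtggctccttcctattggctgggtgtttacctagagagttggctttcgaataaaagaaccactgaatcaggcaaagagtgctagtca
TATAAA began 32 bases before the start of Gcg and 34 bases before that of Otos, and these letters were not in the Otor window on either strand. Of 33469 rat promoters of the same length, 1291 (3.86%) held TATAAA on the gene's strand and 1935 (5.78%) on either strand. A match is a description of the letters and not of a site in use.

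The Car3-positive cells made up 0.172% of the 12779 P1 cells within the limits on genes and mitochondrial UMIs (0.108 to 0.261%) and 3.05% of the 12581 P7 cells (2.76 to 3.37%), 17.7-fold more (11.5 to 28.6). Among Otor-high cells their share was 0.762% at P1 (0.478 to 1.15%) and 15.8% at P7 (14.4 to 17.3%), a ratio of 20.8 (13.5 to 33.5). Otor-high cells as a whole went the other way, from 22.6% to 19.3% of the cells. At P1 only 22 of the 78 non-dividing cells with 3 or more Car3 UMIs were Otor-high (28.2%, 18.6 to 39.5%), and at P7 384 of 521 were (73.7%, 69.7 to 77.4%). The limit on Top2a and Ube2c left out 1 of 23 otherwise qualifying cells at P1 and 41 of 425 at P7 (9.65%).

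Car3 in the chosen cells ran from 3 to 11 UMIs at P1 with a median of 4.5, and from 3 to 116 at P7 with a median of 13. Its summed level was 554 CPM at P1 (454 to 669) and 1735 CPM at P7 (1694 to 1776), and in the other Otor-high cells 2.84 and 16.6 CPM. Thus most P1 cells lay close to the limit and most P7 cells well above it. Of all Car3 UMIs in cells within the limits, the chosen cells held 13.3% at P1 and 60.6% at P7, on 0.197% and 4.26% of all UMIs. Otor, the secreted protein otoraplin, was at a median of 1.25% of the UMIs of a cell at P1 and 1.83% at P7, against 1.64% and 1.81% in the other Otor-high cells.

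**Figure D1:**
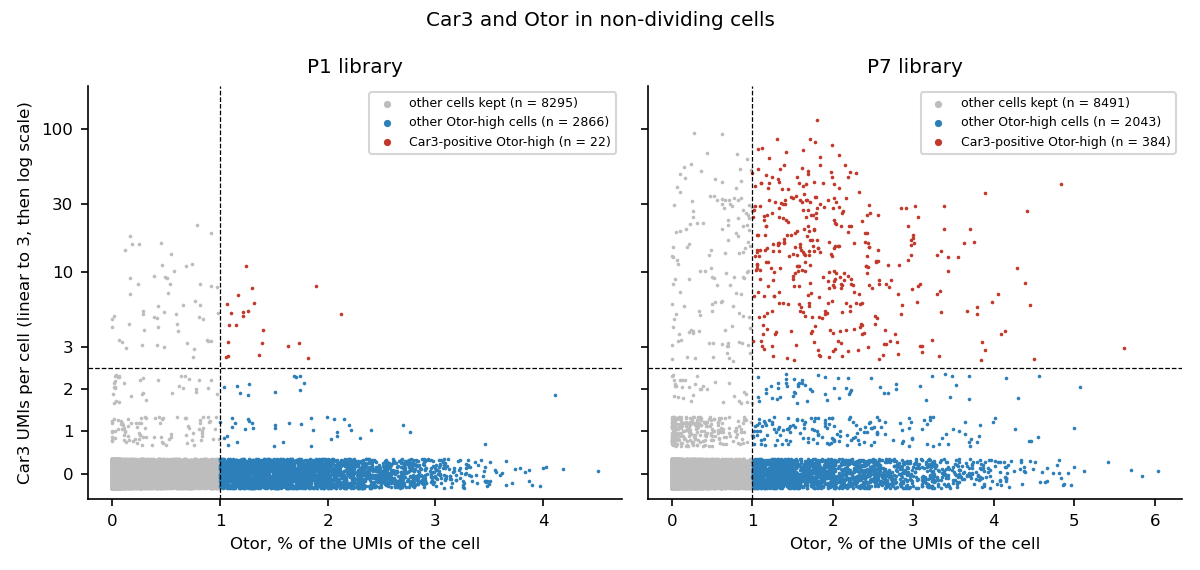
Otor as % of the UMIs of a cell (x axis) against Car3 UMIs (y axis, linear to 3 and then logarithmic, with points spread at random within a count) for non-dividing cells of each library; dashed lines are the 2 limits, red points the 22 and 384 chosen cells, blue points the other Otor-high cells and grey points the rest. Red points at P1 stay at 11 Car3 UMIs or fewer, and at P7 they reach 116.

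The limit on Otor had cells close to it on both sides. At P7 38 non-dividing cells with 3 or more Car3 UMIs had Otor from 0.8% to just under 1%, and 50 had it from 1% to 1.2%. Car3 was at 1810.4 CPM in the cells just outside and 1909 CPM in those just inside, Cnmd at 1269 and 1313 CPM, and Gcg at 617 and 540.3 CPM. Other genes stood further apart, with Ccn3 at 872 and 513 CPM, Fbxo2 at 821 and 567 CPM, Igfbp2 at 7967 and 9429 CPM and Crym at 6418 and 7860.2 CPM. Of the 137 P7 cells with 3 or more Car3 UMIs that fell under the limit, 79 (57.7%) had Otor at 0.5% or more. Cells also lay close to the limit on Car3: 60 P7 cells had 2 Car3 UMIs and 39 had 3. Cnmd was at 2218 CPM in the cells with 2 and 2078 CPM in those with 3, Igfbp2 at 9159 and 9517 CPM, and Otos at 2094 and 254 CPM.

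The name fibrocyte was checked against marker genes, and it was met only in part. Pou3f4, a POU factor of the otic mesenchyme whose loss causes deafness, was at 688 CPM in the P1 and 621 CPM in the P7 cells, and Tbx18, a T-box factor needed for fibrocyte development, at 435 and 469 CPM. Crym was at 6439 and 6860.0 CPM. In contrast, Coch, which encodes cochlin, the main matrix protein of spiral ligament and limbus, was at 56.9 CPM at P1 and 62.8 CPM at P7, below the 285 and 181 CPM of the other Otor-high cells. Otos was at 0 in the P1 cells, but only 9.32% of the other Otor-high cells at P1 held an Otos UMI. The cells are therefore called by the rule that chose them. For the labelled cell type, 8 epithelial genes came to 424 CPM in the P1 and 1068 CPM in the P7 cells, against 92.5 and 314 CPM in the other Otor-high cells. Fbxo2 made up all 424 CPM at P1 and 1041 CPM of the P7 total, while the defining genes of epithelium were low: at P7 Cdh1 was at 10.6 CPM, Epcam at 3.78 CPM, Krt8 at 1.01 CPM and Krt18 at 0.504 CPM, and at P1 they were at 0.

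Gcg was higher in the Car3-positive cells in both libraries. At P1 the 22 cells held 0 to 7 Gcg UMIs each with a median of 0, 21 in all or 109 CPM (67.3 to 166), against 25 CPM in the other Otor-high cells (22.9 to 27.2). At P7 the 384 cells held 0 to 327 Gcg UMIs with a median of 1, 1927 CPM in sum (1884 to 1971), against 705 CPM (692 to 718), a log2 ratio of 1.44. The 2 groups overlapped widely cell by cell, since 42.4% of the P7 Car3-positive cells and 11% of the other Otor-high cells had 3 or more Gcg UMIs. At P1 Gcg was under the 50 UMIs required for a call, and its log2 ratio without a pseudocount had an interval of 1.42 to 2.75.

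A Gcg UMI was found in 36.4% of the Car3-positive cells at P1 and 59.1% at P7, and with each cell thinned to 2000 UMIs in 4.55% and 42.7%. In cells with macrophage genes, which should lack Gcg and so measure free RNA, the shares were 0% of 170 cells at P1 and 7.88% of 165 at P7, or 0% and 2.61% after thinning, at medians of 7488 and 7082 UMIs per cell. The P7 share was thus above the level of free RNA, whereas the thinned P1 share rested on 1 cell. At P7 the Car3-positive cells held 30.9% of all Gcg UMIs (30.3 to 31.5%), the other Otor-high cells 47.7% and all remaining cells 21.4%. Of 388 P7 Otor-high cells with 3 or more Gcg UMIs, 163 were Car3-positive, which is 42.0% of the Gcg cells and 42.4% of the Car3-positive cells. Gcg cells were 16.0% of all Otor-high cells.

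Along the range of Car3 the level of Gcg at P7 did not run in 1 direction. It was 513 CPM in Otor-high cells with no Car3 UMI, 2027 with 1, 2531 with 2, 3499 with 3 to 5, 1471 with 6 to 10, 2005 with 11 to 20 and 1217 CPM in the 117 cells with over 20. At P7 the highest level was thus in cells just past the limit, and each of the bins with a Car3 UMI lay above the bin with none. At P1 Gcg was at 20.9 CPM in Otor-high cells with no Car3 UMI and 178 CPM (132 to 235) with 1. It was at 371 CPM (268 to 499.6) in the 12 P1 cells with 2 and 77.5 CPM (38.7 to 139) with 3 to 5. The P1 level was thus highest just outside the limit. Only RNA was counted, so these values do not measure the peptide.

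Genes that process and sense proglucagon products elsewhere were near 0 or lower in the Car3-positive cells. Pcsk1 and Pcsk2, the convertases that cut proglucagon, had 0 UMIs at P1 and stood at 0.757 and 0.252 CPM at P7, and Chga and Chgb, secretory granule proteins, at 0.252 CPM and 0. These genes were also near 0 in the other Otor-high cells at P7, at 1.61, 0.717, 0.239 and 0.179 CPM in the same order. Cpe, the carboxypeptidase that trims cut prohormones, was at 197 CPM at P1 against 935 CPM in the other Otor-high cells and at 162 against 674 CPM at P7. Scg3, a granule protein, and Pam, which amidates peptides, were also lower, at 20.2 against 77.9 CPM and 54.0 against 111 CPM at P7. Of 6 processing and secretion genes compared at P7, 0 were 2-fold higher and 2 were 2-fold lower, Cpe and Scg3, beside 1.49% and 2.69% of all genes compared. The receptors Gcgr, Glp1r and Glp2r had 0 UMIs in the Car3-positive cells at both ages, and Gipr had 1 UMI at P7. A count of 0 allows up to 15.5 CPM at P1 and 0.757 CPM at P7. In the other Otor-high cells at P7 these receptors together came to only 0.478 CPM. Pax6, a regulator of Gcg in islet and gut, had 0 UMIs, while Maf, a leucine zipper factor of the same list, was at 71.4 CPM against 41.3 CPM at P7.

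Cnmd was found in most of the Car3-positive cells and in a minority of the other Otor-high cells. At P1 they held 0 to 25 Cnmd UMIs each with a median of 5.5, 844 CPM in sum (719 to 984), against 297 CPM in the other Otor-high cells (289 to 304). At P7 they held 0 to 94 with a median of 19, 2236 CPM (2189.6 to 2283) against 553 CPM (542 to 565), log2 ratios of 1.49 and 2.01. Other Otor-high cells with 1 and 2 Car3 UMIs were not lower at P1, at 936 CPM (827 to 1057) and 1001 CPM (827 to 1200.1). At P7 those cells were at 1179.7 and 2218 CPM. At least 3 Cnmd UMIs were present in 16 of 22 P1 cells (72.7%) and 357 of 384 P7 cells (93.0%), and in 19.8% and 23.3% of the other Otor-high cells. Thinned to 2000 UMIs, 59.1% and 86.5% of the cells kept a Cnmd UMI, against 3.70% and 3.92% of the macrophage-gene cells. The reverse did not hold, since 42.9% of the 832 P7 Otor-high cells with 3 or more Cnmd UMIs were Car3-positive.

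Otos, otospiralin, was lower in summed level. At P1 0 UMIs were counted in the 22 cells, against 144 CPM in the other Otor-high cells (139 to 149). Those UMIs lay in few cells, since 9.32% of the other Otor-high cells held an Otos UMI and 3.70% held 3 or more. The share of 0 in 22 cells has an interval up to 15.4%, so no bound on the fold is drawn from it. At P7 the Car3-positive cells held 0 to 430 Otos UMIs with a median of 0, 543 CPM in sum (520.3 to 566), against 1382 CPM (1364 to 1399.9), a log2 ratio of -1.34 (-1.41 to -1.28 without a pseudocount). The P7 sum came from few cells: 47 of 384 (12.2%) held 3 or more Otos UMIs, a share close to the 12.4% over all Otor-high cells. Of those 47 cells, 33 (70.2%) also held 3 or more Gcg UMIs. In the other Otor-high cells Otos reached 1223 UMIs in a cell. The share of P7 cells with any Otos UMI was not lower, at 33.1% of the Car3-positive and 24.7% of the other Otor-high cells. Nor did the level fall steadily along Car3, at 1212 CPM with no Car3 UMI, 2924 with 1 and 2094 with 2.

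Crym differed least among the markers the rule did not use. Its UMIs ran from 3 to 116 per cell at P1 with a median of 48.5 and from 0 to 261 at P7 with a median of 72.5. The sums were 6439 CPM against 5381 CPM at P1 and 6860.0 against 4518 CPM at P7, log2 ratios of 0.26 and 0.60, below the 2-fold call at both ages. Along Car3 at P7 Crym went from 4389 CPM with no Car3 UMI to 7529.8 CPM with over 20.

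**Figure D2:**
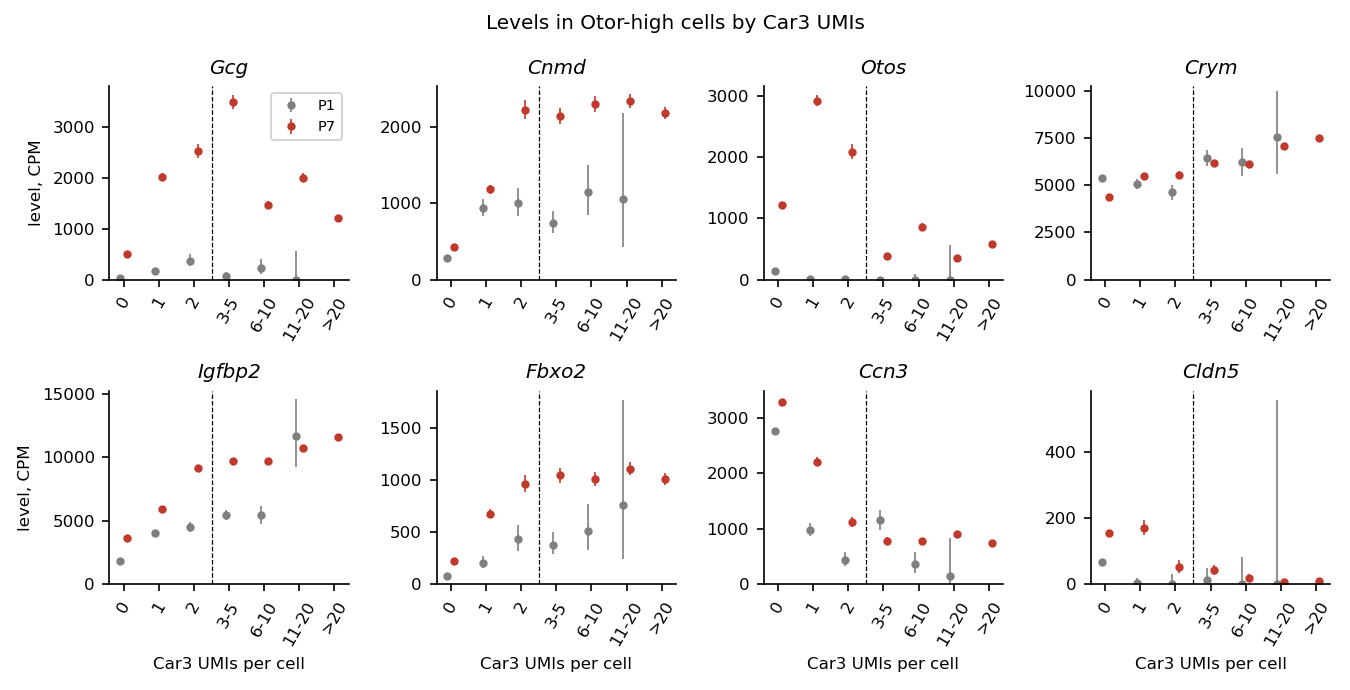
Level in CPM (y axes, linear from 0, with exact 95% counting intervals) of 8 genes in Otor-high cells binned by Car3 UMIs per cell (x axes), P1 in grey and P7 in red; the dashed line is the limit of 3 UMIs, and P1 has no cell over 20. At P7 Cnmd and Fbxo2 stay near 1 level from 2 Car3 UMIs on, Gcg peaks at 3 to 5, and Otos, Ccn3 and Cldn5 are lower past the limit than in cells with none. At P1 Gcg is highest at 2 Car3 UMIs.

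**Figure D3:**
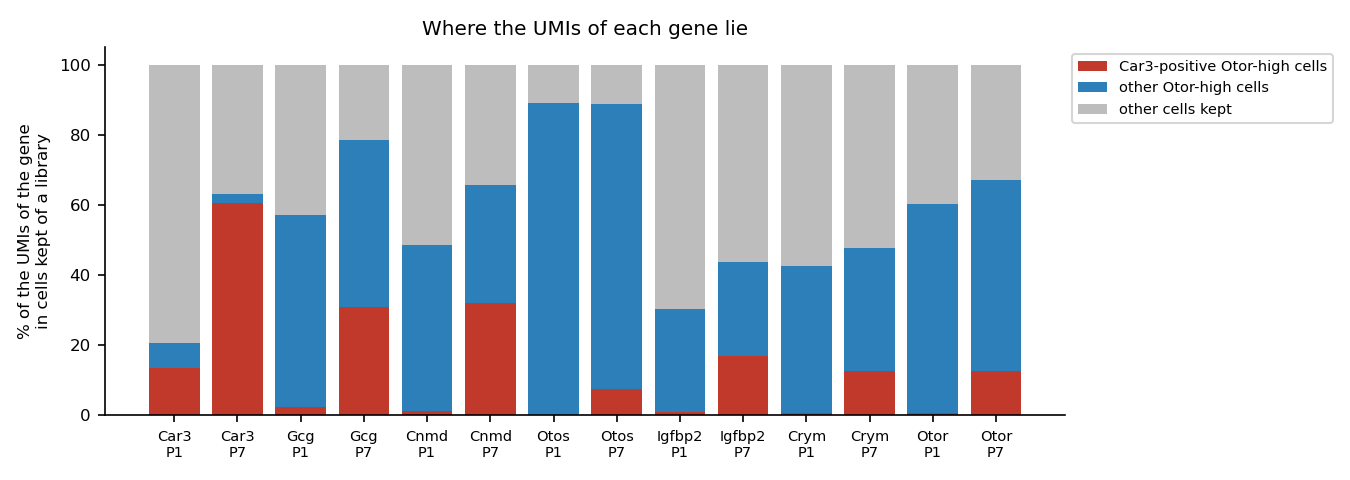
Share of the UMIs of each gene (y axis, % of those in cells within the limits on genes and mitochondrial UMIs) that lay in the Car3-positive Otor-high cells (red), the other Otor-high cells (blue) and all other cells (grey), per gene and library (x axis). At P7 red holds 60.6% of Car3, 30.9% of Gcg, 32.1% of Cnmd and 7.56% of Otos.

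To see whether cells chosen by Car3 resembled each other in other genes, each Otor-high cell was placed by 20 principal components computed without the 6 marker genes. At P7 68.7% of the 20 nearest neighbours of a Car3-positive cell were Car3-positive on average, with a median of 75%, against 15.8% of all Otor-high cells. For cells with 1 or 2 Car3 UMIs the mean was 24.3% and for cells with none 4.99%. For 289 of 384 cells 50% or more of the neighbours were Car3-positive. At P1 the mean was 12.7%, against 0.762% of all Otor-high cells, and 0.530% for cells with no Car3 UMI. With 10 components and 10 neighbours the means for Car3-positive cells were 68.0% and 14.1%.

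Across the genes compared at P7, 85 of 5693 (1.49%) were 2-fold higher in the Car3-positive than in the other Otor-high cells and 153 (2.69%) were 2-fold lower, with a median log2 ratio of 0.02. After Car3 itself the largest ratios were those of Cpxm2, a secreted carboxypeptidase-like protein, at 184 against 31.9 CPM, and of Pappa1 at 29.8 against 1.97 CPM. Rbp4, the retinol carrier of plasma, stood at 137 against 26.5 CPM and Slc13a5, a citrate transporter, at 56.7 against 9.32 CPM. RGD1305645 had the highest level among them, 2743 against 618 CPM. Tnmd, tenomodulin, the closest relative of Cnmd and a tendon protein, was at 23.7 against 1.67 CPM, and Ntrk3, the neurotrophin-3 receptor, at 67.8 against 13.1 CPM.

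The genes lower in the Car3-positive cells at P7 were led by Pmch, the precursor of melanin-concentrating hormone, at 6.56 against 185 CPM, and by Notum, a secreted Wnt inhibitor, at 11.9 against 183 CPM. Cav1 and Cavin2, which build caveolae, were at 10.1 against 119.6 CPM and 9.58 against 88.7 CPM. The tight junction genes Cldn5 and Cldn11 were at 17.7 against 154 CPM and 21.2 against 138 CPM. Dpt, dermatopontin of the collagen matrix, was at 45.4 against 389 CPM and Aldh1a2, which makes retinoic acid, at 22.2 against 159 CPM. Under a pseudocount of 20 CPM 39 genes were 2-fold higher and 80 lower.

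**Figure D4:**
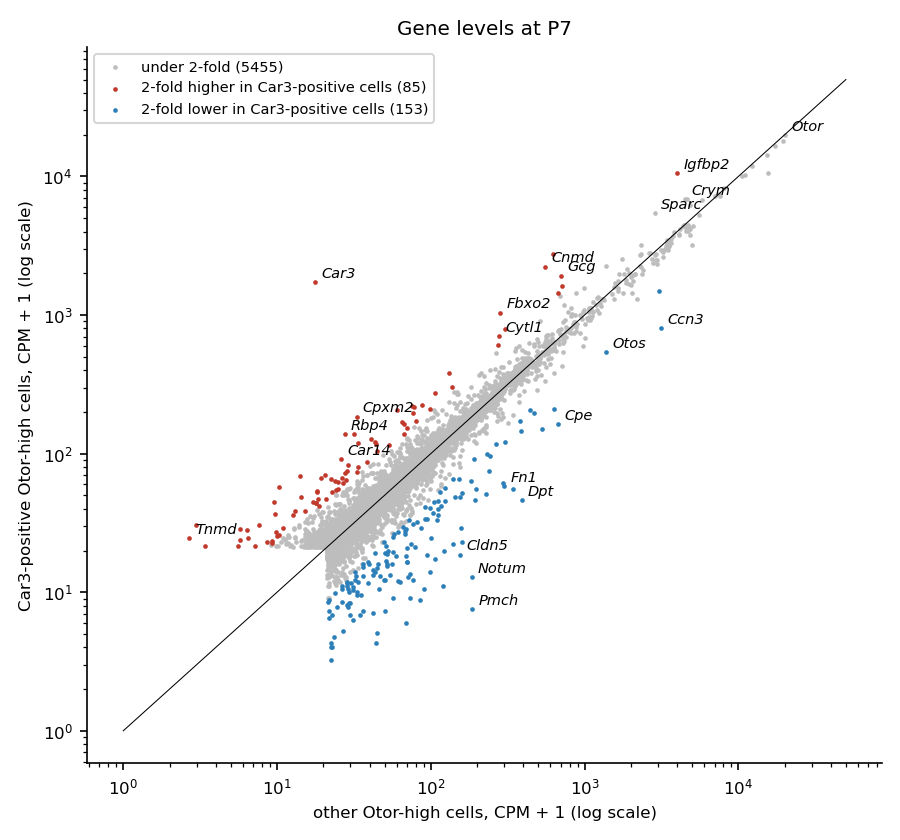
Level of each of 5693 genes at P7 in the other Otor-high cells (x axis) and the Car3-positive cells (y axis), as CPM + 1 on log scales; red points are the 85 genes 2-fold higher, blue points the 153 genes 2-fold lower on the scale with a pseudocount of 5 CPM. Otor and Crym lie near the line of equality, and Car3, which chose the cells, lies farthest above it.

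At P1 the 22 cells gave 16 of 3054 genes 2-fold higher (0.524%) and 389 (12.7%) 2-fold lower, with a median log2 ratio of -0.30. This split was set in part by the minimum of 50 UMIs, which a gene low in the 22 cells can reach only through the larger group. With a minimum of 100 CPM over the UMIs of both groups together, which the larger group still decides and which Car3 and Fbxo2 did not reach, 14 of 1375 genes (1.02%) were higher, 51 (3.71%) were lower and the median was -0.01. Besides Car3, the largest ratios among the 16 genes were those of RGD1305645 at 1967 against 303 CPM, Cytl1, a secreted cytokine-like protein of cartilage, at 585 against 101 CPM, and Fbxo2, which recognises glycoproteins for degradation, at 424 against 80.9 CPM. Mgp, an inhibitor of matrix calcification, was at 1755 CPM (1573 to 1952) against 408 CPM at P1 but at 362 against 347 CPM at P7. Aldh1a2, Nkd2 and Notum were each at 0 in the 22 cells.

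The P7 differences were then read in the P1 library, whose cells had no part in them. Of 11 genes at 100 CPM or more over the UMIs of both P1 groups together that were 2-fold higher at P7, apart from Car3, 11 were higher in the P1 Car3-positive cells and 10 (90.9%) were 2-fold higher, with a median log2 ratio of 1.62. Of 34 that were 2-fold lower at P7, 33 were lower at P1 and 26 (76.5%) were 2-fold lower, with a median of -1.58. Over all 1374 such genes 49.2% were higher and 1.02% and 3.71% were 2-fold higher and lower. The P1 library was made apart from the P7 library, but in both the cells were chosen by the same Car3 and Otor limits.

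**Figure D5:**
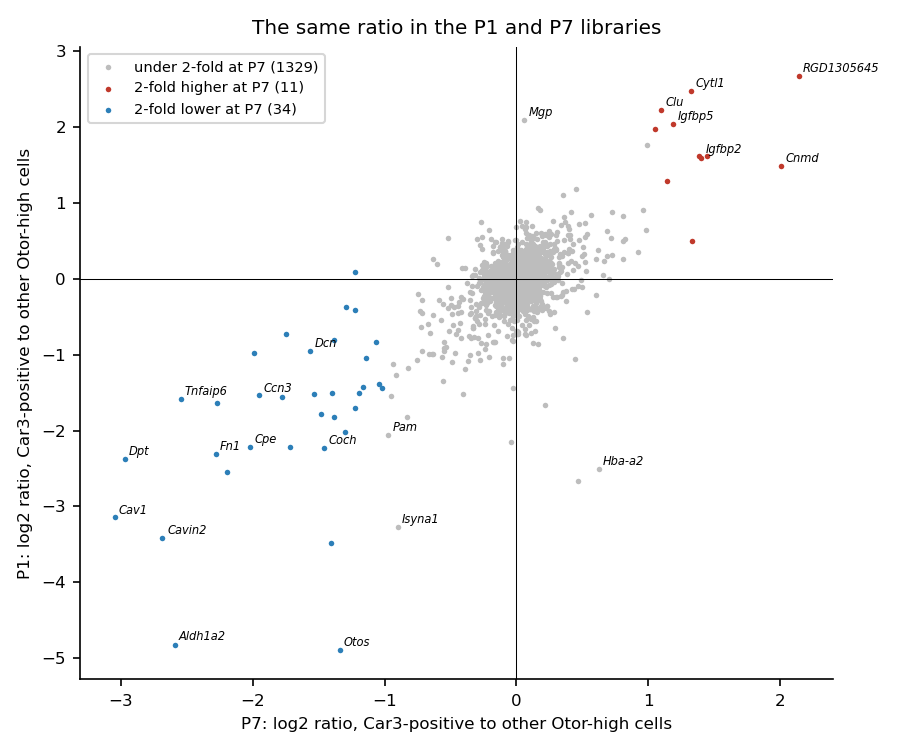
Log2 ratio of the Car3-positive to the other Otor-high cells at P7 (x axis) and at P1 (y axis) for 1374 genes of at least 100 CPM over the UMIs of both P1 groups together, without Car3 and Otor; red points are the 11 genes 2-fold higher and blue points the 34 genes 2-fold lower at P7. All 11 red points lie above 0 on the y axis and 33 of the 34 blue points below it, while Mgp passes 2-fold at P1 only.

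Gene groups were then followed from lists chosen with earlier results of these data known. Among carbonic anhydrases, Car14, a membrane-bound form that acts outside the cell, was at 89.8 CPM at P7 (80.7 to 99.6) against 25.1 CPM, and at 56.9 against 6.02 CPM at P1 on 11 UMIs. Car13, a cytosolic form, was at 19.9 against 4.54 CPM and Car2, the widespread cytosolic form, at 72.6 against 46.2 CPM at P7. Car11, a relative without enzyme activity, was at 154 against 184 CPM. Of the 3 members compared at P7, Car2, Car11 and Car14 (Car3 itself was counted apart because it chose the cells), only Car14 passed 2-fold. Over all genes 1.49% were 2-fold higher and 2.69% lower.

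The cartilage-like matrix genes had a median log2 ratio of 0.53 at P7 over the 13 compared, against 0.02 over all genes. Of them 1, Cnmd, was 2-fold higher and 0 were lower, beside 1.49% and 2.69% of all genes. Col9a1, a chain of type IX collagen, was at 6849.7 against 4621 CPM, Col2a1, the main cartilage collagen, at 1442 against 873 CPM, and Sox9, the factor that drives both, at 397 against 241 CPM. Matn4, a matrilin, was at 1559 against 987 CPM. At P1 the median was -0.39 over 12 genes, beside -0.30 over all genes, with 1 higher and 4 lower, so nothing about these genes is read from it. Genes counted as lower at P1, such as Fmod at 10.4 against 41.1 CPM and Sox5 at 10.4 against 26.6 CPM, rested on few UMIs in the 22 cells.

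Interstitial matrix genes were split. At P7 2 of 15 compared were 2-fold higher and 7 lower, with a median log2 ratio of -0.70, beside 1.49% and 2.69% of all genes and a median of 0.02. Col12a1 and Col14a1, which join collagen fibrils to other matrix, were the 2 higher genes, at 221 against 74.6 CPM and 208 against 98.0 CPM. Fn1, fibronectin, was at 57.5 against 298 CPM, Dcn, the proteoglycan decorin, at 209.8 against 629 CPM, and Postn, periostin, at 144 against 386 CPM. Sparc, a collagen-binding matrix protein, was below the call at 5431 against 2862 CPM. At P1 2 of 13 were higher and 4 lower, beside 0.524% and 12.7% of all genes. The minimum of 50 UMIs set these counts in part, so nothing about these genes is read from P1. Fn1 rested on 7 UMIs in the P1 Car3-positive cells. Col12a1, at 129 against 35.2 CPM, fell under the minimum there with 25 UMIs.

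Secreted modulators of growth factor signals also went both ways. Of 17 compared at P7, 6 were 2-fold higher and 5 lower, beside 1.49% and 2.69% of all genes. Igfbp2 and Igfbp5, which bind insulin-like growth factors, were at 10582 CPM (10481 to 10684) against 4018 CPM and 1623 against 711 CPM at P7, and at 5673 against 1873 CPM and 2391 against 578 CPM at P1. Sfrp2 and Frzb, secreted Wnt antagonists, were at 224 against 86.5 CPM and 151 against 69.5 CPM at P7, while Wif1, another Wnt inhibitor, was at 28.2 against 156 CPM. Within the CCN family of matrix signalling proteins, Ccn2 was higher, at 217 against 76.5 CPM, and Ccn3 lower, at 804 against 3131 CPM, at P7, and the same order held at P1 with 450.3 against 144 CPM and 937 against 2726 CPM. Clu, the chaperone clusterin, was higher at 1438 against 670.1 CPM at P7 and at 906 against 189 CPM at P1.

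Genes of ion and hormone transport in the lateral wall were followed next. Atp1b1, a sodium pump subunit, stood at 199 against 105 CPM at P7, below the call. Of 5 gap junction genes compared at P7 only Gja4 (connexin 37) passed 2-fold, at 73.4 against 27.4 CPM, beside 1.49% of all genes higher and 2.69% lower. Gjb2 and Gjb6, the deafness genes for connexins 26 and 30, were at 152 against 186 CPM and 73.1 against 88.7 CPM. Slco1c1, a thyroid hormone transporter, was lower at 73.4 against 238 CPM, and the receptor gene Thrb was at 91.6 against 67.9 CPM. Contractile genes had a median log2 ratio of 0.67 over the 5 compared at P7, against 0.02 over all genes. Of these 5 genes only 3 had a ratio above 0, and 0 passed 2-fold in either direction, beside 1.49% and 2.69% of all genes. Cald1, caldesmon, was at 600.0 against 376 CPM, Tpm1, a tropomyosin, at 233 against 131 CPM and Myl9, a myosin light chain, at 181 against 98.8 CPM. Tpm2, another tropomyosin, was lower, at 96.6 against 132 CPM. Acta2, smooth muscle actin, was under the minimum for comparison, with 0 UMIs in the 384 cells and 1.43 CPM in the others.

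Markers of cell types in which Car3 or Gcg are best known were at low levels. The skeletal muscle list, 11 genes, came to 12.1 CPM in the P7 cells with Ckm, Myh3, Myh8, Mb and Myog at 0, and to 25.9 CPM in the other Otor-high cells. The list of 10 endocrine genes came to 2.27 CPM with 7 genes at 0, among them Ins1 and Ins2. The 10 adipocyte genes came to 67.1 against 34.1 CPM, of which Lpl, lipoprotein lipase, made up 43.1 CPM and Cfd 19.2 CPM, and Cidec, Lep and Retn were at 0. Endothelial genes came to 473 against 918 CPM, most of it Emcn at 430.0 CPM, and Plvap (12.9 against 31.0 CPM) and Kdr (1.01 against 8.31 CPM) were low beside Cldn5. Macrophage genes came to 30.3 against 73.4 CPM and osteoblast genes to 76.9 against 204 CPM. The part of other cells in the differences was not tested.

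Between the ages, 903 of 3737 genes (24.2%) were 2-fold higher and 30 (0.803%) 2-fold lower in the P7 than in the P1 Car3-positive cells, with a median log2 ratio of 0.49. In the other Otor-high cells the counts were 394 of 5795 (6.80%) and 154 (2.66%), with a median of 0.14. The minimum bore on this split as well, since a gene needed far fewer CPM to reach 50 UMIs in 384 cells than in 22, so the split into higher and lower is not a result about the ages. A minimum of 100 CPM over the UMIs of both groups, most of which are from P7, gave 150 genes higher and 33 lower of 1494 and is open to the same limit. Gcg went from 109 to 1927 CPM, a log2 ratio of 4.09, and in the other Otor-high cells from 25 to 705 CPM, 4.57. Cnmd went from 844 to 2236 CPM (1.40), beside 0.89 in the other Otor-high cells, and Car3, which chose the cells, from 554 to 1735 CPM. Otos went from 0 to 543 CPM, beside 144 to 1382 CPM.

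Other large age ratios were those of Cpz, a carboxypeptidase that acts on Wnt proteins, from 5.18 to 268 CPM, and Tnfrsf11b, the osteoclast inhibitor osteoprotegerin, from 5.18 to 105 CPM. The P1 value of each gene rested on 1 UMI, so the size of these ratios is poorly set. For Tnfrsf11b the log2 ratio without a pseudocount had an interval of 1.85 to 9.64. Cpz and Tnfrsf11b were also higher at P7 in the other Otor-high cells, from 9.63 to 147 CPM and from 8.04 to 78.2 CPM. Haemoglobin Hba-a2, summed over its 2 rows, went from 31.1 to 636 CPM, beside 224 to 401 CPM. The erythroid list as a whole came to 36.2 CPM at P1 and 734 CPM at P7, beside 242 and 467 CPM in the other Otor-high cells. The glia list came to 1346 and 3417 CPM, beside 1673 and 2470.0 CPM, but most of its P7 total was S100b (2524 CPM) and Pmp22 (538 CPM), which Otor-high cells also hold. The part of free RNA in these levels was not tested.

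Genes lower at P7 included early response genes. Egr1 went from 600.4 CPM (496 to 720.2) to 83.7 CPM, Fos from 1154 to 278 CPM, Ier2 from 466 to 144 CPM and Btg2 from 590.1 to 186 CPM. Of 9 such genes compared, 4 were 2-fold lower and 1 higher, Hspa1b, with a median of -0.70, beside 0.803% and 24.2% of all genes and a median of 0.49. In the other Otor-high cells 3 of 13 were lower and 1 higher with a median of -0.73, beside 2.66% and 6.80% and a median of 0.14. Mgp went from 1755 to 362 CPM, a log2 ratio of -2.26, beside -0.23 in the other Otor-high cells. Of 70 ribosomal protein genes 6 were 2-fold lower and 0 higher, with a median of -0.52, beside the same 0.803% and 24.2% of all genes. Since the minimum set these shares in part, the ribosomal counts are not read against them. In the other Otor-high cells 7 of 73 were lower and 0 higher with a median of -0.34, against 2.66% and 6.80%. Early response genes are also induced when tissue is dissociated, and their part in the age difference was not tested.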

How the data were processed

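Cochlear duct cells were measured in 1 droplet library at P1 and 1 at P7. Per the Methods and the submitters' processing notes, the authors aligned reads to rn6 and counted UMIs with Cell Ranger 3.1.0, with Seurat 3.1.1 named for later steps, and the deposited values are raw UMI counts per gene and barcode. A step against free RNA or doublets is not given in the sources used here. The members, markers and gene lists were chosen with earlier results of these data known.

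UMIs were summed over the cells of a group and library and scaled to 1000000. A gene was compared with at least 20 CPM and 50 UMIs in the higher group, and the minimum of 100 CPM over both groups was added after seeing the data. Rows of a symbol are separate genes, and 1453 symbols have several rows, which were summed for list totals and list genes. Genes named are the markers, list genes past 2-fold or defining a list, and the 15 with the largest log2 ratio per direction and comparison; a few others are named as chosen later. Intervals are exact Poisson for levels and Clopper-Pearson for shares, and a count of 0 was given a limit of 3 counts. Scrublet, run through scanpy 1.11.5, called doublets, and all else used pandas 2.3.3, scipy 1.17.1 and numpy 2.4.6 under Python 3.11.15. The ratio step was tested on simulated data. Promoters were taken from RefSeq (GRCr8), a build other than that of the counts, so coordinates were not joined to them. A few genes that the naming rule covers are not reported here.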

Additional observations from a re-analysis of the deposited data

How the results depend on the processing

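The P7 share of Car3-positive cells among Otor-high cells stayed above the P1 share in each of the 8 other settings tried, at log2 ratios from 3.54 to 7.18, the largest with 1 P1 cell. No paired analysis was possible because each age has 1 library. With 1 library per age nothing here measures the spread between animals, and the 22 P1 cells limit every P1 value. Other rules gave other numbers of cells at P1 and P7: 34 and 444 with 2 or more Car3 UMIs, 11 and 321 with 5 or more, 49 and 463 with Otor at 0.5% or more, 1 and 163 at 2% or more, and 2 and 192 in cells thinned to 2000 UMIs. With Car3 at 0.05% or more of UMIs the P7 number was 328.

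Counts of genes past 2-fold moved more than named genes. Against the other Otor-high cells at P1, the number lower was 138 under a pseudocount of 20 CPM, 119 with a minimum of 50 CPM, 776 with 5 or more Car3 UMIs, 671 with Car3 at 0.05%, 254 with the median set to 0, 13 against cells matched on UMIs, where 565 genes were compared, and 51 with 100 CPM over both groups. The numbers higher and lower were 111 and 1232 with 10 UMIs and no CPM minimum, 0 and 3147 with Otor at 2% or more, where 1 cell was left, and 25 and 713 against all other cells. At P7 they were 39 and 80 under a pseudocount of 20 CPM, 56 and 91 with 50 CPM, 162 and 419 against all other cells and 18 and 40 with 100 CPM over both groups. Between the ages the number higher was 432 under a pseudocount of 20 CPM, 385 with 50 CPM, and 150 with 100 CPM over both groups, and the numbers higher and lower were 1908 and 175 with 10 UMIs and no CPM minimum, 2478 and 0 with Otor at 2%, and 432 and 124 with the median set to 0. Except where fewer cells or genes were left, the cause was not tested.

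Against all other cells of the P7 library, not only Otor-high cells, Otos and Coch were higher in the Car3-positive cells, at log2 ratios of 0.87 and 0.06. For the 37 genes followed at P7, 539 of 555 values under other settings were counted as unchanged. The counts were 413 of 435 for 29 genes at P1 and 128 of 132 for 11 genes between the ages. A gene past 2-fold had to keep its direction and stay past 2-fold. For a gene under 2-fold, a change of sign also counted as unchanged.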

Other observations

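Within the 384 Car3-positive cells at P7, the 163 cells with 3 or more Gcg UMIs were set beside the 157 with none, for genes chosen after their values were seen. Mia, a small cartilage-derived secreted protein, was at 458 CPM (427 to 491) in the cells with Gcg and 124 CPM (107 to 142) in those without, and Sncg, gamma-synuclein, at 433 and 147 CPM. Cytl1 was at 951 and 469 CPM, Ptgds, a prostaglandin D2 synthase, at 234 and 97.4 CPM, and Dpp4, the protease that inactivates glucagon-like peptide 1, at 268 and 135 CPM. Col3a1, a fibril collagen, was on the other side at 405 and 917 CPM. Otor (22204 and 18445 CPM), Crym (6602 and 6941 CPM) and Col9a1 (7043 and 6677 CPM) differed little between them, and median depth was 10225 and 9218 UMIs per cell.

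Antioxidant genes had a median log2 ratio of 0.09 between the Car3-positive and the other Otor-high cells at P7, with 2 of 18 compared 2-fold higher and 1 lower, beside 1.49% and 2.69% of all genes and a median of 0.02. Sod3, extracellular superoxide dismutase, was at 121 against 42.4 CPM, Mt2A, a metal-binding metallothionein, at 168 against 64.4 CPM, and Scara3, a scavenger receptor, at 40.1 against 90.7 CPM. At P1 Sod3 stood at 98.3 against 24.3 CPM and Mt2A at 254 against 74.8 CPM, both under the minimum for a call. Of 7 genes of glucose and glycogen use compared at P7, 0 passed 2-fold in either direction, with a median of 0.15. The same 1.49%, 2.69% and median of 0.02 over all genes stand beside them.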
